A study of Mus musculus with 8 samples.

Results

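The nuclear genes of oxidative phosphorylation were examined in colonic epithelial cells, the cells that line the large intestine. The members were every gene symbol starting with Ndufa, Ndufb, Ndufc, Ndufs, Ndufv, Uqcr, Cox4 to Cox8 or Atp5, together with Sdha to Sdhd, leaving out symbols marked as pseudogenes. This gave 92 of the 35963 gene symbols in the table. By symbol, 38 belonged to complex I, 7 to its assembly factors (Ndufaf), 4 to complex II, 8 to complex III, 18 to complex IV and 17 to complex V. Symbols were matched by name and not by any measured value, but the list was chosen with earlier results of these data known. Of the 92 members, 86 passed the filter on low counts and were tested.

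RNA was sequenced from cells released from the proximal colon of mice aged 4 weeks. The 4 libraries labelled Ccna2-KO (Ccna2 fl/fl vil-Cre, genotype label Ccna2-/-) carried loxP-flanked Ccna2 alleles and a Cre transgene under the villin promoter, which is active along the intestinal epithelium. The 4 control libraries came from Ccna2 fl/fl mice without Cre, labelled wild type, so both groups shared the flanked alleles. Cyclin A2, the product of Ccna2, activates kinases that carry cells through DNA replication and into division. The comparison asks how loss of this gene in the epithelium alters its transcripts, here those of the respiratory chain. Nothing in the labels says that replicates are different mice, so the p-values reflect library-to-library spread only, and part of it may be technical.

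Oxidative phosphorylation is the process by which mitochondria make ATP. Complexes I (NADH dehydrogenase) and II (succinate dehydrogenase) pass electrons to ubiquinone, complex III hands them to cytochrome c, and complex IV (cytochrome c oxidase) reduces oxygen. The proton gradient that complexes I, III and IV build drives complex V, the ATP synthase. In the colon, differentiated colonocytes are known to feed this chain largely by oxidizing butyrate, a fatty acid made by gut bacteria. Most subunits are encoded in the nucleus. The subunits encoded in mitochondrial DNA had no row in the table under the symbols searched and were not analysed here.

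Some features of the libraries touch every result. Gene totals lay between 25960180 and 33028486 estimated counts per library. Ccna2 itself averaged 21.9 ± 5.46 CPM in the libraries labelled Ccna2-KO and 27.6 ± 18.7 CPM in the controls (CPM are counts scaled to a common library size; SD, n = 4 each), with a log2 fold change of -0.33 ± 0.41 (SE; edgeR adjusted p = 0.673). The sign rested on control replicate 1, with 54.3 CPM where the other controls had 25.9, 11.9 and 18.3 CPM. Against control replicates 2 to 4 the libraries labelled Ccna2-KO were higher by 0.26 in mean log2 CPM. The targeted gene did not separate the groups, so every direction below rests on the labels. The labels number the libraries, from 621 to 641 for Ccna2-KO replicates 1 to 3 and control replicate 1 (the high set), and from 595 to 598 for Ccna2-KO replicate 4 and control replicates 2 to 4 (the low set). The meaning of these numbers is not stated. Markers of the colonic epithelium were abundant, with summed levels of between 35485 and 44063 CPM in the libraries labelled Ccna2-KO. In the controls they summed to 31307 to 37876 CPM, with the lowest value in control replicate 1. At the adjusted threshold 0 of 12 were called in edgeR, beside 12.1% of all genes. With an unadjusted p under 0.05, 2 were higher and 1 lower, beside 26.3% of all genes in either direction. DESeq2 called 2 higher, beside 18.6% of all genes in either direction. Epcam, a surface protein found throughout the epithelium, averaged 1928 ± 107 CPM in the libraries labelled Ccna2-KO and 1884 ± 86.8 CPM in the controls. In bulk RNA, fewer cells of a type and less RNA per cell cannot be told apart.

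No member of the respiratory chain passed the test between the groups. At an adjusted p of 0.05, 0 of 86 members were called higher and 0 were called lower in the libraries labelled Ccna2-KO, while 6.40% of all 15893 genes tested were called higher, 5.71% lower and 12.1% in either direction (edgeR quasi-likelihood test, Benjamini-Hochberg adjustment over all genes). At an unadjusted p under 0.05, 4 of 86 members passed (4.65%), against 26.3% of all genes. In no member, 0 of 86, did the 4 values of either group lie wholly outside the range of the other, against 19.0% of all genes. DESeq2 called 1 member, Cox6b2, where it called 18.6% of all genes. The median log2 fold change was -0.04 over the members and -0.01 over all genes.

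The intervals bound how large a difference could have gone unseen under the main fit only, and the estimates moved in other fits described below. In 70 of 86 members (81.4%) the 95% interval of the log2 fold change lay wholly within 1.5-fold in either direction (0.58 on the log2 scale), against 37.8% of all genes. The median SE was 0.14 among the members and 0.20 among all genes. Neither comparison with all genes was matched for count level. The plot of fold changes shows these intervals for 84 members. The widest interval, that of Ndufs5, is described apart below.

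**Figure D1:**
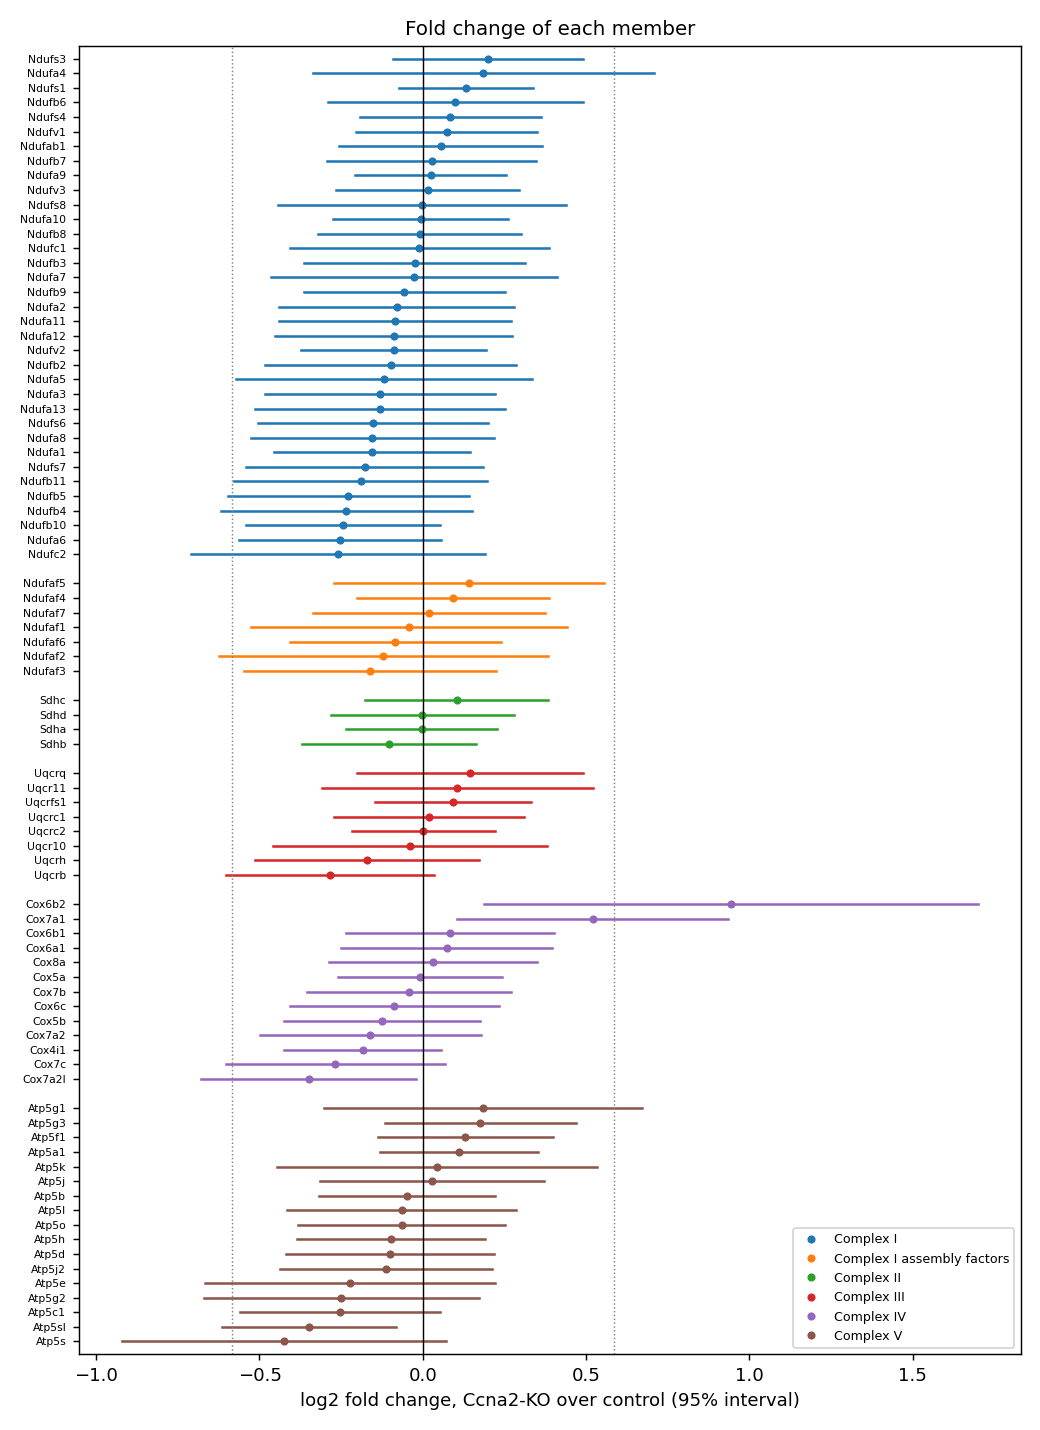
Log2 fold change (Ccna2-KO over control) of 84 members tested, without Ndufs5, on the x axis, by gene, coloured by complex. Points are estimates, bars are 95% intervals and dotted lines mark 1.5-fold. The medians per complex lie between -0.06 and 0.01, and 4 intervals (Cox6b2, Cox7a1, Cox7a2l and Atp5sl) do not cross 0.

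The summed level of each complex was near equal in the 2 groups. Complex I (37 genes tested) had a sum of 3534 ± 118 CPM in the libraries labelled Ccna2-KO and 3592 ± 705 CPM in the controls (SD, n = 4 each), a log2 ratio of -0.02. Complex II (4 genes) had a sum of 1202 ± 40.6 CPM in the libraries labelled Ccna2-KO and 1212 ± 109 CPM in the controls, a log2 ratio of -0.01. Complex III (8 genes) had a sum of 2099 ± 56.4 CPM in the libraries labelled Ccna2-KO and 2125 ± 324 CPM in the controls, a log2 ratio of -0.02. These differences were all smaller than the SD of either group. Complex IV (13 genes) had a sum of 3464 ± 53.3 CPM in the libraries labelled Ccna2-KO and 3631 ± 614 CPM in the controls, a log2 ratio of -0.07. Complex V (17 genes) had a sum of 6899 ± 308 CPM in the libraries labelled Ccna2-KO and 6898 ± 996 CPM in the controls, a log2 ratio of 0.00. The difference of complex IV exceeded the SD of the libraries labelled Ccna2-KO but not that of the controls. A sum is led by its most abundant genes, of which Atp5b gave 28.6% of complex V and Sdha 41.3% of complex II.

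**Figure D2:**
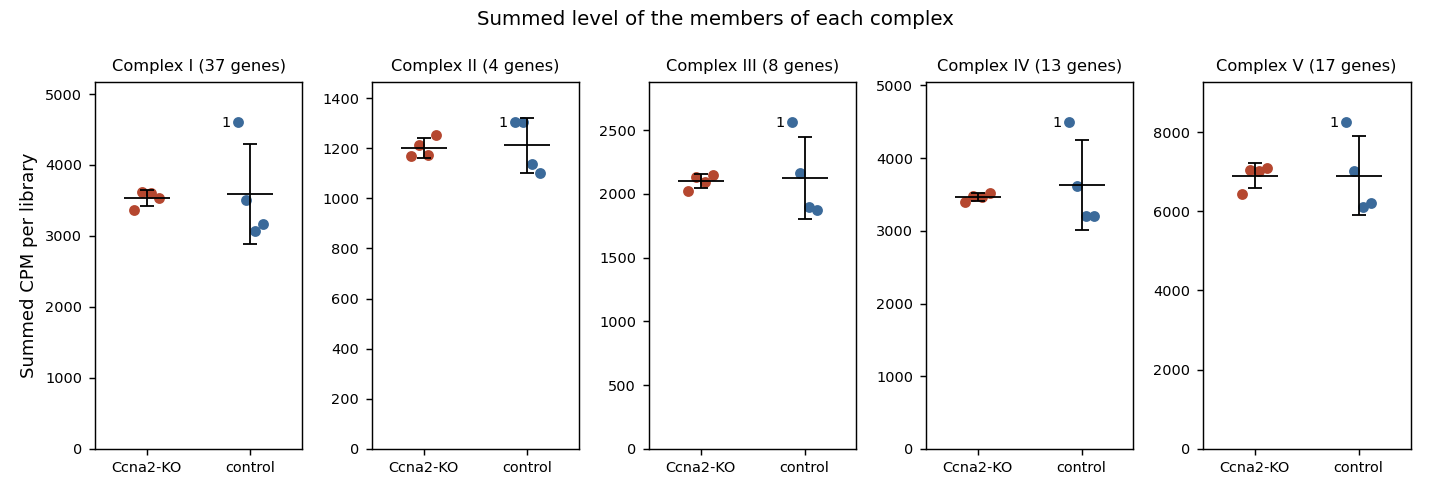
Summed CPM of the tested members of each complex in every library, with the libraries labelled Ccna2-KO left and the controls right in each panel, each panel with its own y axis from 0. Points are libraries, lines the mean and SD of 4 libraries, and the number 1 marks control replicate 1, the highest point in every panel. In complex II it is close to control replicate 2, at 1307 CPM and 1304 CPM.

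Levels per transcript length differed widely between subunits, and the complexes overlapped. Of the 92 members, 77 could be matched to a transcript length. CPM were divided by the full annotated length without a correction for fragment length, so levels of short transcripts may be understated. Orders between genes or complexes of unlike transcript length hold on this scale only. Atp5b, the catalytic beta subunit of the ATP synthase, had the highest value on this scale. It reached 1014 ± 54.9 CPM per kb in the libraries labelled Ccna2-KO and 1048 ± 121 CPM per kb in the controls. Cox4i1, the ubiquitous form of a regulatory subunit of complex IV, followed at 830 ± 23.9 CPM per kb in the libraries labelled Ccna2-KO and 942 ± 92.5 CPM per kb in the controls. The means of these genes lay more than an SD apart in the libraries labelled Ccna2-KO, while in the controls their SDs overlapped. Cox6a1, at 861 ± 66.2 CPM per kb in the libraries labelled Ccna2-KO and 819 ± 156 CPM per kb in the controls, could not be ordered against Cox4i1 within these SDs. The median level over both groups was 107 CPM per kb in complex I (33 genes), 202 in complex II (4 genes), 273 in complex III (8 genes), 360 in complex IV (13 genes) and 282 in complex V (16 genes). The quartiles were 239 and 353 CPM per kb in complex III, 240 and 604 in complex IV, and 224 and 371 in complex V, so these complexes could not be ordered. In complex II the genes ran from 48.1 to 237 CPM per kb, and in complex I the quartiles were 86.3 and 126. Of the assembly factors of complex I, which help to build it and are no part of the finished enzyme, 3 had a length, with a median of 8.96 CPM per kb. The lowest member with a length was Cox6b2, at 4.00 CPM per kb in the libraries labelled Ccna2-KO and 2.08 in the controls.

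Complex I showed no called gene. Ndufb9, an accessory subunit of the membrane arm and the gene nearest the complex median, had 167, 179, 176 and 183 CPM in Ccna2-KO replicates 1 to 4, against 236, 175, 158 and 162 CPM in control replicates 1 to 4. Control replicate 1 stood above the other 7 libraries, and the log2 fold change was -0.06 ± 0.14 (edgeR adjusted p = 0.848). Log2 fold changes in the complex, Ndufs5 apart, ran from -0.26 (Ndufc2) to 0.20 (Ndufs3). The 7 assembly factors ranged from -0.16 (Ndufaf3) to 0.14 (Ndufaf5), with a median of -0.04.

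Complex II links the respiratory chain to the citric acid cycle and has only nuclear subunits. Sdha, the flavoprotein that oxidizes succinate, had 483, 495, 484 and 531 CPM in Ccna2-KO replicates 1 to 4, against 457, 557, 498 and 485 CPM in control replicates 1 to 4. Here control replicate 1 was the lowest library, and the groups overlapped throughout (log2 fold change -0.00 ± 0.10; edgeR adjusted p = 0.989). Sdhb, the iron-sulfur subunit, had a log2 fold change of -0.10 ± 0.12 (edgeR adjusted p = 0.645). The membrane anchors Sdhc and Sdhd had 0.10 ± 0.13 (adjusted p = 0.663) and -0.00 ± 0.13 (adjusted p = 0.995), so none passed the threshold. All 4 intervals lay within 1.5-fold.

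Complex III was as even. Uqcrc2, a core subunit of its matrix part, had 467, 462, 455 and 464 CPM in Ccna2-KO replicates 1 to 4, against 497, 484, 438 and 427 CPM in control replicates 1 to 4. The libraries labelled Ccna2-KO lay inside the range of the controls, with a log2 fold change of 0.00 ± 0.10 (edgeR adjusted p = 0.992). Uqcrb, which helps to bind ubiquinone, had the lowest log2 fold change of the complex, -0.28 ± 0.14 (edgeR adjusted p = 0.244). Uqcrb had 204, 212, 193 and 196 CPM in Ccna2-KO replicates 1 to 4, against 309, 247, 231 and 193 CPM in control replicates 1 to 4. The other 3 controls were above every library labelled Ccna2-KO, and control replicate 4 was below them all, so the groups overlapped.

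Complex IV held 3 of the 4 members with an unadjusted p under 0.05. They were 23.1% of its 13 tested genes, a share no higher than the 26.3% of all genes. These 3 are forms or partners of its subunits. Cox7a1 is the form of subunit 7a typical of heart and skeletal muscle. It had 43.4, 43.3, 41.3 and 52.7 CPM in Ccna2-KO replicates 1 to 4, against 43.6, 28.8, 31.0 and 22.7 CPM in control replicates 1 to 4. Control replicate 1 lay inside the range of the libraries labelled Ccna2-KO and the other controls lay below it. The log2 fold change was 0.52 ± 0.19 (95% interval 0.10 to 0.94; edgeR adjusted p = 0.105).

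Cox6b2, the testis form of subunit 6b, was near the detection limit, with 2.46, 2.43, 1.84 and 1.92 CPM in Ccna2-KO replicates 1 to 4, against 1.85, 0.559, 1.17 and 0.909 CPM in control replicates 1 to 4. Only control replicate 1 overlapped the libraries labelled Ccna2-KO. The log2 fold change was 0.94 ± 0.34 (95% interval 0.19 to 1.70; edgeR adjusted p = 0.106; DESeq2 adjusted p = 0.0368). Cox7a2l, a relative of subunit 7a that takes part in joining complexes III and IV into supercomplexes, had 158, 170, 156 and 140 CPM in Ccna2-KO replicates 1 to 4, against 252, 193, 155 and 195 CPM in control replicates 1 to 4. Control replicate 3 lay among the libraries labelled Ccna2-KO, and the log2 fold change was -0.35 ± 0.15 (95% interval -0.68 to -0.02; edgeR adjusted p = 0.165).

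The ubiquitous forms were not called. Cox4i1 had 603, 619, 618 and 646 CPM in Ccna2-KO replicates 1 to 4, against 790, 727, 627 and 680 CPM in control replicates 1 to 4. Control replicate 3 lay inside the range of the libraries labelled Ccna2-KO (log2 fold change -0.18 ± 0.11; edgeR adjusted p = 0.321). The values of Cox6a1 (0.07 ± 0.14), Cox6b1 (0.08 ± 0.14), Cox7a2 (-0.16 ± 0.15), Cox7b (-0.04 ± 0.14) and Cox8a (0.03 ± 0.14) did not pass either, with edgeR adjusted p between 0.555 and 0.923. Ndufa4, named for complex I and now placed with complex IV, had 94.2, 115, 105 and 85.7 CPM in Ccna2-KO replicates 1 to 4, against 140, 68.9, 69.3 and 73.6 CPM in control replicates 1 to 4. Control replicate 1 was above every other library and the other 3 controls below every library labelled Ccna2-KO (log2 fold change 0.19 ± 0.23; edgeR adjusted p = 0.674).

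The 6 members that were not tested are forms used in other tissues or conditions. Cox6a2 and Cox8b are typical of muscle, Cox4i2 of lung, and Ndufa4l2 is induced by hypoxia. Cox4i2 had 4, 7, 0 and 5 counts in Ccna2-KO replicates 1 to 4, against 2, 5, 2 and 6 counts in control replicates 1 to 4. Cox6a2 had 0, 1, 5 and 0 counts in Ccna2-KO replicates 1 to 4, against 1, 1, 7 and 1 counts in control replicates 1 to 4. Over all 8 libraries Ndufa4l2 had 9 counts, Cox8b 3, Cox7b2 1 and Cox8c 0. No difference in these genes was detectable at this depth.

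Complex V held the gene with the highest level per kb, Atp5b, and 1 member with an unadjusted p under 0.05 (5.88% of 17, against 26.3% of all genes). Atp5b had 1797, 1985, 1947 and 2044 CPM in Ccna2-KO replicates 1 to 4, against 2295, 2096, 1815 and 1823 CPM in control replicates 1 to 4. The groups overlapped and the log2 fold change was -0.05 ± 0.12 (edgeR adjusted p = 0.856). Atp5o, a subunit of the stalk that holds the catalytic head in place and the gene nearest the complex median, had a log2 fold change of -0.06 ± 0.14 (edgeR adjusted p = 0.826). Atp5sl, whose product is no subunit of the synthase and helps to assemble complex I, had 33.8, 35.0, 32.9 and 32.7 CPM in Ccna2-KO replicates 1 to 4, against 50.6, 43.1, 34.6 and 42.6 CPM in control replicates 1 to 4. Control replicate 3 lay among the libraries labelled Ccna2-KO, and the log2 fold change was -0.35 ± 0.12 (95% interval -0.61 to -0.08; edgeR adjusted p = 0.0928). Atp5s, a coupling factor, had the lowest log2 fold change of any member, -0.43 ± 0.22 (edgeR adjusted p = 0.260), at 6.15 ± 0.756 CPM in the libraries labelled Ccna2-KO and 8.27 ± 2.56 CPM in the controls.

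The 3 genes of subunit c, which build the rotating ring of the synthase and yield the same mature protein, differed in level. Per kb, Atp5g3 (716 bases) reached 732 ± 44.3 CPM per kb in the libraries labelled Ccna2-KO and 648 ± 104 in the controls. Atp5g2 (731 bases) followed at 187 ± 16.5 CPM per kb in the libraries labelled Ccna2-KO and 222 ± 66.5 in the controls, and Atp5g1 (1616 bases as annotated) at 155 ± 10.5 in the libraries labelled Ccna2-KO and 137 ± 50.5 in the controls. Atp5g3 stood above both by more than the SDs. In the controls the SDs of Atp5g1 and Atp5g2 overlapped. The order of these 2 genes rests on the 1616 bases taken for Atp5g1, since in mean CPM Atp5g1 was above Atp5g2 in both groups. The test between the groups rests on CPM. Atp5g3 averaged 524 ± 31.7 CPM in the libraries labelled Ccna2-KO and 464 ± 74.4 CPM in the controls (log2 fold change 0.18 ± 0.13; edgeR adjusted p = 0.441). Atp5g1 averaged 251 ± 17.0 CPM in the libraries labelled Ccna2-KO and 221 ± 81.6 CPM in the controls (0.18 ± 0.22; adjusted p = 0.650). Atp5g2 averaged 137 ± 12.1 CPM in the libraries labelled Ccna2-KO and 162 ± 48.6 CPM in the controls (-0.25 ± 0.19; adjusted p = 0.450). None passed the threshold.

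Ratios between forms of the same subunit within a library are given as a description, since they were computed after the genes' values were known. They are ratios of CPM, not corrected for length. The ratio of Cox7a1 to Cox7a2 was 0.279, 0.257, 0.276 and 0.337 in Ccna2-KO replicates 1 to 4, against 0.189, 0.161, 0.203 and 0.159 in control replicates 1 to 4. The groups did not overlap in this ratio, and control replicate 1 lay among the other controls. The ratio of Atp5g2 to Atp5g3 was 0.265, 0.264, 0.269 and 0.243 in Ccna2-KO replicates 1 to 4, against 0.412, 0.317, 0.298 and 0.355 in control replicates 1 to 4. It did not overlap either and was lower in the libraries labelled Ccna2-KO. The ratio of Cox6b2 to Cox6b1 averaged 0.00854 ± 0.00145 in the libraries labelled Ccna2-KO and 0.00455 ± 0.00149 in the controls, again without overlap. The ratio of Atp5g1 to Atp5g3 averaged 0.479 ± 0.00710 in the libraries labelled Ccna2-KO and 0.466 ± 0.0929 in the controls, and there the groups overlapped. Among single genes 19.0% did not overlap, and the share among ratios of gene pairs was not computed.

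Control replicate 1 set most of the spread among the members. It had the highest level of the 8 libraries in 77 of 86 members (89.5%), against 26.9% of all genes. Among the exceptions were Ndufs1, Ndufs5, Ndufaf4, Sdha, Uqcrfs1, Cox7a1, Cox6b2 and Atp5a1. The median difference in log2 CPM between this library and the mean of control replicates 2 to 4 was 0.53 over the members and 0.01 over all genes. Members took 1.66%, 1.83%, 1.74% and 1.66% of the gene counts in Ccna2-KO replicates 1 to 4, against 2.22%, 1.71%, 1.53% and 1.60% in control replicates 1 to 4. The libraries labelled Ccna2-KO lay between control replicate 1 and control replicates 3 and 4.

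**Figure D3:**
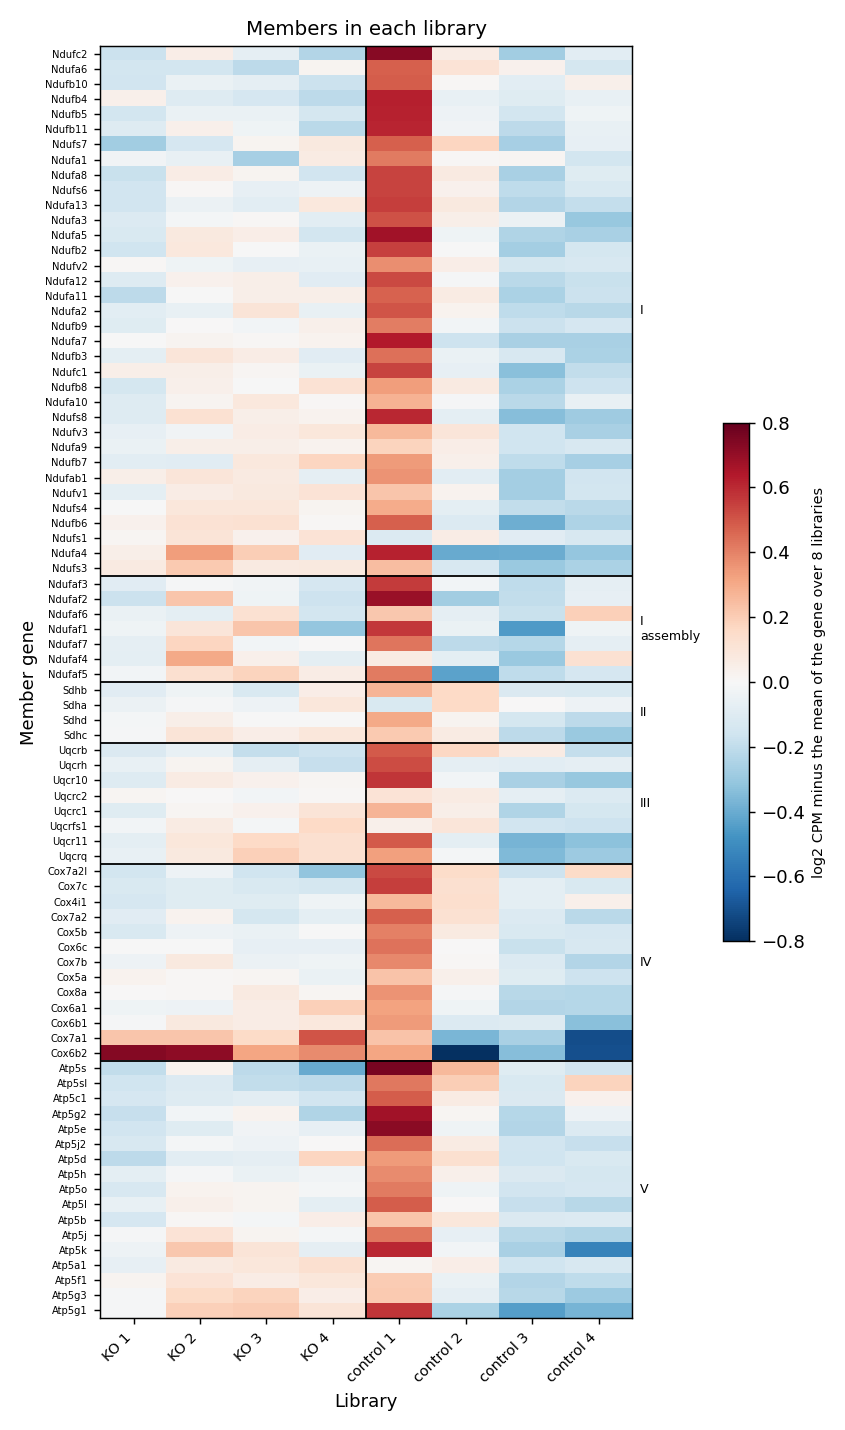
Log2 CPM of 84 tested members (rows, by complex; Ndufs5 left out) in each library (columns), minus the gene's mean over the 8 libraries, with colours ending at 0.8 in either direction. The column of control replicate 1 is above the mean in most rows, with a median of 0.42 over the 86 members, and the columns of control replicates 3 and 4 are below it, with medians of -0.20 and -0.15.

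The libraries labelled Ccna2-KO were more alike than the controls. The median SD of log2 CPM per member was 0.079 among the 4 libraries labelled Ccna2-KO and 0.284 among the 4 controls. It was smaller in the libraries labelled Ccna2-KO for 85 of 86 members (98.8%), Ndufs5 being the exception, against 73.9% of all genes. Without control replicate 1 the median SD of the controls was 0.123, and the SD was smaller in the libraries labelled Ccna2-KO for 74 of 86 members (86.0%), against 42.8% of all genes.

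Leaving out control replicate 1 changed the calls. Then 10 of 86 members were called higher (11.6%), against 15.1% of all genes, and 0 were called lower, against 13.4% of all genes, with a median log2 fold change of 0.11 over the members. The 10 were Atp5g1 (0.48), Cox6b2 (1.28), Cox7a1 (0.72), Ndufa4 (0.50), Ndufa7 (0.24), Ndufb6 (0.32), Ndufs3 (0.33), Ndufs4 (0.22), Uqcr11 (0.33) and Ndufs5 (8.24, a fitted value that depends on the prior count, since control replicates 2 to 4 held 3, 3 and 1 counts). They include subunits of complexes I, III, IV and V. The values of both groups lay apart, higher in the libraries labelled Ccna2-KO, in 17 of 86 members, against 19.0% of all genes, and lower in 0 of 86, against 18.2% of all genes. The complex sums then gave log2 ratios of 0.12 (I), 0.03 (II), 0.09 (III), 0.05 (IV) and 0.10 (V), all above those with this library.

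The number sets moved the members in the other direction. When the set entered the model beside genotype, 0 of 86 members were called higher, against 9.29% of all genes, and 9 were called lower (10.5%), against 8.90% of all genes, with a median of -0.17 over the members. The 9 were Atp5c1 (-0.37), Atp5g2 (-0.45), Atp5s (-0.66), Atp5sl (-0.44), Cox7a2l (-0.51), Ndufb10 (-0.37), Ndufb11 (-0.38), Ndufb4 (-0.42) and Ndufc2 (-0.47). These 9 and the 10 genes called without control replicate 1 share no gene. A shared gene would have had to be called in opposite directions by the 2 fits, so the lack of overlap adds nothing. Within the high set, the mean of Ccna2-KO replicates 1 to 3 was below control replicate 1 in 81 of 86 members, with a median difference of -0.44. Within the low set, Ccna2-KO replicate 4 was above the mean of control replicates 2 to 4 in 66 of 86 members, with a median difference of 0.09. Each set holds a single library of 1 of the groups, so a set effect and an effect of that library cannot be told apart. Members called only in these fits were named after their values were seen.

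Transcript length moved with the excess of control replicate 1. Most respiratory chain transcripts are short, and across 76 members with a length other than Ndufs5, the difference between control replicate 1 and control replicates 2 to 4 was smaller in longer transcripts (on log2 length, Pearson r = -0.65, Spearman rho = -0.62). The genes share these libraries and are not independent replicates. Over 8355 genes with a length, r was -0.32 and rho -0.40. Below 750 bases the median difference was 0.60 in 37 members and 0.63 in all 465 genes of that length. Between 750 and 1000 bases it was 0.56 in 12 members and 0.58 in all genes, and between 1000 and 1500 bases 0.48 in 10 members and 0.47 in all genes. Between 1500 and 2500 bases it was 0.37 in 13 members and 0.25 in all genes. Between 2500 and 4000 bases it was 0.05 in 4 members and 0.01 in all genes, and at 4000 bases and above, where no member lay, it was -0.27 in all genes. The members thus stood near other genes of their own length in this library. The part of length in the excess was not tested further.

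The difference between the libraries labelled Ccna2-KO and control replicates 2 to 4 was less correlated with length. Across the same 76 members r was -0.15 and rho -0.10, and over the 8355 genes r was -0.09 and rho -0.15. Below 750 bases its median was 0.11 in the members and 0.11 in all genes of that length. Between 750 and 1000 bases it was 0.06 in the members and 0.13 in all genes, and between 1000 and 1500 bases 0.06 and 0.12. At 1500 to 2500 bases it was 0.13 in the members and 0.07 in all genes, and at 2500 to 4000 bases 0.12 and 0.02.

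**Figure D4:**
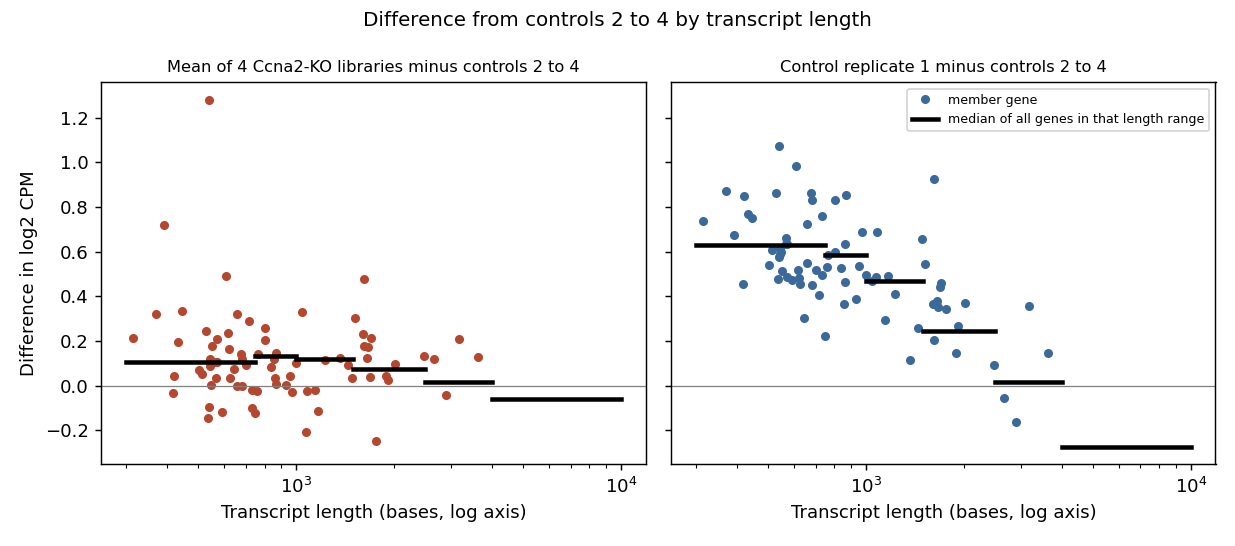
Difference in log2 CPM from the mean of control replicates 2 to 4 (y axis) against transcript length in bases (x axis, log scale), for the mean of the 4 libraries labelled Ccna2-KO (left) and for control replicate 1 (right). Points are 76 members (Ndufs5 left out) and black bars the medians of all genes in that length range, which fall from 0.63 to -0.27 in the right panel.

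The goblet cell and cell cycle markers of control replicate 1 also stood apart from the other controls. Its 8 goblet cell markers summed to 17711 CPM, where the libraries labelled Ccna2-KO had 8357 to 13370 CPM and the lowest control 8194 CPM, and 7 of the 8 were highest in it. Between the groups 1 of the 8 was called higher and 0 lower. Without control replicate 1 these counts were again 1 and 0, beside 15.1% and 13.4% of all genes. With the set term they were 1 and 2, beside 9.29% and 8.90% of all genes. The 7 markers of dividing cells summed to between 589 and 872 CPM in the libraries labelled Ccna2-KO, against 231 to 471 CPM in the controls, with the top control value in control replicate 1, and 3 of 7 were called higher. T cell markers summed to between 10.1 and 18.0 CPM in the libraries labelled Ccna2-KO, against 28.3 to 117 CPM in the controls, with the lowest control value in control replicate 1, and 8 of 8 tested were called lower. Of the rarer epithelial cells, 4 of 8 enteroendocrine markers and 2 of 5 tuft cell markers were called lower and 0 higher. Among all genes 6.40% were called higher and 5.71% lower. The part of these cell types in the members' levels was not tested. Striated muscle and brown fat, tissues rich in mitochondria, were looked for as well. The muscle markers summed to between 26.7 and 72.7 CPM in the libraries labelled Ccna2-KO, against 185 to 325 CPM in the controls. The sum was led by the actin gene Acta1 (log2 fold change -2.50 ± 0.33; edgeR adjusted p = 0.00208). Acta1 was the only 1 of the 5 to pass the filter on low counts, and another was at 0 in every library. The sum is thus no measure of muscle as a whole. The 5 brown fat markers summed to at most 0.300 CPM in any library. The 5 red blood cell markers summed to between 172 and 1362 CPM in the libraries labelled Ccna2-KO, against 172 to 308 CPM in the controls, with a median log2 fold change of 1.77. In edgeR 0 of these 5 were called at the adjusted threshold. With an unadjusted p under 0.05, 5 were higher, beside 26.3% of all genes in either direction. DESeq2 called 1 higher, beside 18.6% of all genes in either direction.

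Ndufs5, a small accessory subunit of complex I, gave the widest interval, and its counts cannot be read alone. It had 666, 831, 1624 and 1 counts in Ccna2-KO replicates 1 to 4, against 888, 3, 3 and 1 counts in control replicates 1 to 4. The 4 libraries of the high set all held at least 666 counts and the 4 of the low set at most 3. The log2 fold change was 1.66 ± 1.68 (95% interval -2.12 to 5.43; edgeR adjusted p = 0.591). Another row of the table, BC002163, is a processed pseudogene, a copy of the messenger RNA set back into the genome. On GRCm38 (GENCODE M21) Ndufs5 lies at chr4:123712710-123718202 on the minus strand and BC002163 at chr16:42955631-42955949 on the plus strand. Over the 318 coding bases of Ndufs5 the copy has 2 mismatches, T81C and A105G (Ndufs5 base first, positions counted from the first base of the start codon), an identity of 99.4%. The first 150 coding bases are printed because they carry both mismatches, in capitals.
Ndufs5: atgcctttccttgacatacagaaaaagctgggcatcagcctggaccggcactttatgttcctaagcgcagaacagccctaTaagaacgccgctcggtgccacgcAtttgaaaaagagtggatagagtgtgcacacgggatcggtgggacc
BC002163: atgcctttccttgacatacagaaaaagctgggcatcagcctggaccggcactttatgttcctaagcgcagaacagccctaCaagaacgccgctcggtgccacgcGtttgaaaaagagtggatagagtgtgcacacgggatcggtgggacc

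Reads that miss both mismatches fit either sequence over these bases, and kallisto shares such reads between them. BC002163 had 877, 1130, 8 and 1619 counts in Ccna2-KO replicates 1 to 4, against 1317, 1711, 1751 and 1790 counts in control replicates 1 to 4. Where Ndufs5 was near 0, the copy was high, and in Ccna2-KO replicate 3 the reverse held. Summed, the pair had 1543, 1961, 1632 and 1620 counts in Ccna2-KO replicates 1 to 4, against 2205, 1714, 1754 and 1791 counts in control replicates 1 to 4. The sum overlapped between the groups, with control replicate 1 highest, and its log2 fold change was -0.17 ± 0.14 (edgeR adjusted p = 0.492). Without control replicate 1, Ndufs5 alone gave 8.24 (adjusted p = 0.0361) and the sum gave -0.06 (edgeR adjusted p = 0.724). In all, 10 members had 14 near-identical copies in the transcript annotation (at least 97% identity over at least 60% of the length), of which BC002163 was the 1 that had its own row in the table. Atp5g1, Atp5g2, Atp5o, Ndufs3 and Uqcrb are among these 10, so reads of unlisted copies may be counted under them.

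**Figure D5:**
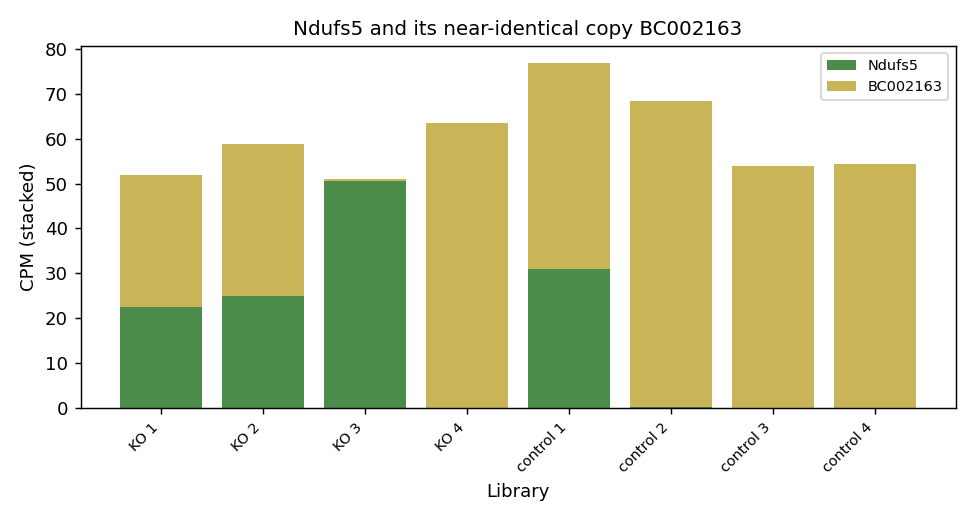
CPM of Ndufs5 (green) and its copy BC002163 (yellow), stacked, in each library (KO stands for the libraries labelled Ccna2-KO). The stacked total lies between 50.9 and 76.8 CPM in every library, while Ndufs5 alone is near 0 in Ccna2-KO replicate 4 and control replicates 2 to 4.

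Single transcripts of the members were tested as well. Of 172 transcripts, 144 were tested and 0 were called, against 357 of 38384 transcripts over the whole table (0.930%). At so low a share few or no calls would be found among 144 transcripts in any case, so the 0 adds little to the gene test. Of the 92 members, 55 had a single transcript in the table.

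Promoters of the members were searched for motifs of factors known to act on respiratory genes, as a description of the sequences. A window of 250 bases upstream of the annotated start was found for 74 of the 92 members in the RefSeq promoter table of GRCm38.p6. The NRF1 motif GCATGCGC, on either strand, was in 9 of the 74 (12.2%), against 2.56% of 27025 genes. The ETS motif CCGGAAG, bound by GABP, was in 13 (17.6%), against 7.83% of genes, and the YY1 motif AAGATGG in 1 (1.35%), against 5.18% of genes. The median GC content was 56.8% in the members and 52.4% in all genes, and the motifs' shares were not corrected for it. In the Cox6a1 window the NRF1 motif and its reverse complement overlap. The windows of Cox6a1, which holds both an NRF1 and an ETS motif (in capitals), and of the paired forms Cox7a1 and Cox7a2, whose ratio is described above and which hold none of the 3 motifs, are printed 5′ to 3′ on the gene's strand. Cox6a1 is at chr5:115348959-115349208 (minus strand), Cox7a1 at chr7:30183921-30184170 (plus strand) and Cox7a2 at chr9:79759854-79760103 (minus strand), all on GRCm38.p6.
Cox6a1: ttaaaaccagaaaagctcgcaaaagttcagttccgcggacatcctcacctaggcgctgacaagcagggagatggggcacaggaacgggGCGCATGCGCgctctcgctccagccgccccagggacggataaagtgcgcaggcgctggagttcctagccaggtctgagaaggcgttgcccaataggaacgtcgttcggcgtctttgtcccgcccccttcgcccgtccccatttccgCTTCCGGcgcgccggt
Cox7a1: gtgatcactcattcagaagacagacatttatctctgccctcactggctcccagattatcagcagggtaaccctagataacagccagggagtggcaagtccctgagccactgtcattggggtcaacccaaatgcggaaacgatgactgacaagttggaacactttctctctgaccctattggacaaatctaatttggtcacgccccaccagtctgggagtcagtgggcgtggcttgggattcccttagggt
Cox7a2: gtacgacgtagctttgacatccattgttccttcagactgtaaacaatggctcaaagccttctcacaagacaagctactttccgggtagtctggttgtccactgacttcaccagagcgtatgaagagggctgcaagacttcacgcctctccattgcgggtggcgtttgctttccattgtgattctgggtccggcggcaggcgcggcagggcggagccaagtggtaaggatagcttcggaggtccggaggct

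Genes of the factors that bind these motifs and of other regulators of mitochondrial genes were not called. The log2 fold change of Ppargc1a, which encodes the coactivator PGC-1 alpha, was -0.51 ± 0.25 (edgeR adjusted p = 0.246). Values for Ppargc1b (-0.07 ± 0.24), Esrra (0.02 ± 0.13), Nrf1 (-0.17 ± 0.09), Gabpa (0.05 ± 0.08), Yy1 (0.02 ± 0.11) and Tfam (0.07 ± 0.15) did not pass either, with edgeR adjusted p between 0.258 and 0.954. Of 21 genes of mitochondrial biogenesis 0 rose and 1 fell, beside 6.40% of all genes called higher and 5.71% lower. The 1 was Polg2, an accessory subunit of the mitochondrial DNA polymerase (-0.49 ± 0.13; edgeR adjusted p = 0.0394).

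Other mitochondrial gene lists held few called genes, where 6.40% of all genes were called higher and 5.71% lower. With an unadjusted p under 0.05 the share of all genes in either direction was 26.3%, and in DESeq2 it was 18.6%. Of 43 assembly factors of the respiratory complexes outside the rule, 0 rose and 0 fell at the adjusted threshold in edgeR (2 higher and 2 lower at an unadjusted p under 0.05, 1 higher and 2 lower in DESeq2), with a median of -0.06. Of 77 genes of the mitochondrial ribosome 0 rose and 1 fell, Mrps31 (-0.54 ± 0.09; adjusted p = 0.00719). Control replicate 1 was the highest library in 70 of these 77, and without it 25 rose and 1 fell, beside 15.1% of all genes called higher and 13.4% lower in that fit. With the set term 0 of the 77 rose and 7 fell, beside 9.29% and 8.90% of all genes. The list's median was then -0.12, where it was 0.26 without control replicate 1. Of 29 genes of mitochondrial import 0 rose and 0 fell in edgeR (3 higher and 1 lower at an unadjusted p under 0.05, 1 higher in DESeq2), with a median of 0.13. Without control replicate 1, 13 of the 29 rose and 1 fell, while with the set term 0 rose and 2 fell and the median was -0.06. Of 18 genes that feed or carry electrons 0 rose and 1 fell, Adck3, of ubiquinone synthesis (-1.58 ± 0.26; edgeR adjusted p = 0.00631). Of 12 antioxidant genes Prdx5, a peroxiredoxin, rose (0.37 ± 0.10; edgeR adjusted p = 0.0458) and 0 fell.

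Glycolysis is the other route to ATP. Of its 22 genes tested, 7 rose and 0 fell in the libraries labelled Ccna2-KO (edgeR adjusted p under 0.05), beside 6.40% of all genes called higher and 5.71% lower. The median log2 fold change of the list was 0.37, beside -0.01 over all genes, and control replicate 1 was the highest library in 2 of the 22. Pgk1, a kinase of the pathway that yields ATP, averaged 635 ± 48.5 CPM in the libraries labelled Ccna2-KO and 349 ± 32.6 CPM in the controls (0.86 ± 0.11; adjusted p = 0.00190). Slc16a3, the lactate exporter MCT4, averaged 29.5 ± 10.1 CPM in the libraries labelled Ccna2-KO and 4.81 ± 1.89 CPM in the controls (2.61 ± 0.33; adjusted p = 0.00187). Both were apart in all 8 libraries. Without control replicate 1, 9 of the 22 rose (15.1% of all genes did), and with the set term 14 rose (9.29% of all genes did), with 0 lower in each.

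At the junction of glycolysis and respiration, 3 of 26 genes of the citric acid cycle and pyruvate dehydrogenase rose and 0 fell, with a median of -0.02. They were Pdk3 (0.60 ± 0.11; adjusted p = 0.00968) and Pdk1 (0.68 ± 0.14; adjusted p = 0.0156), kinases that switch off pyruvate dehydrogenase, and Cs, citrate synthase (0.52 ± 0.12; edgeR adjusted p = 0.0242). In the same fit 6.40% of all genes were called higher and 5.71% lower. Without control replicate 1, 8 of the 26 rose and 2 fell, beside 15.1% and 13.4% of all genes. With the set term 4 rose and 1 fell, beside 9.29% and 8.90% of all genes. Among 17 genes of mitochondrial dynamics and removal, Bnip3 (1.11 ± 0.19; adjusted p = 0.00665) and Bnip3l (0.37 ± 0.08; adjusted p = 0.0193), receptors for mitophagy, rose, and Pink1 (-0.53 ± 0.10; edgeR adjusted p = 0.0114), a kinase that marks damaged mitochondria, fell. Bnip3l is also known for clearing mitochondria from maturing red blood cells, whose markers are given above, and their part in its level was not tested. Of 12 genes of the mitochondrial stress response 3 rose and 0 fell, among them Trib3 (1.65 ± 0.23; edgeR adjusted p = 0.00277) and Gdf15 (1.67 ± 0.26; edgeR adjusted p = 0.00458). The dynamics and stress counts stand beside the same 6.40% of all genes called higher and 5.71% lower. A call in these lists and none among the members does not show that the lists differ from the members, which was not tested.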

How the data were processed

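The authors deposited estimated counts per RefSeq transcript for 8 libraries of total RNA sequenced on an Illumina NextSeq 500, per the labels and the design text. Kallisto and mouse build GRCm38 (mm10) are named per the submitters' processing notes, without a version. The 687 transcripts without a symbol (3.19% to 5.51% of the counts) were left out. Counts were summed per symbol, rounded, and tested with edgeR 4.0.16 in R 4.3.3 (filterByExpr, TMM, robust quasi-likelihood fit of genotype over 8 libraries), with Benjamini-Hochberg adjustment over 15893 genes. CPM use TMM-scaled totals, and log2 CPM a prior count of 2. Errors of fold changes are SEs, others SDs. The fit was tested on simulated data.

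Alternatives were other scalings and filters, DESeq2 1.42.0, limma 3.58.1 voom, the replicate number as a block, a term for the library number set, and each library left out. Adding BC002163 to Ndufs5, the ratios and the checks without control replicate 1 beyond its refit were chosen after seeing the data. The members, gene lists and naming rule were chosen with earlier results of these data known. Named were the Ccna2 count, all complex II genes, paired subunit forms, the most abundant and the most median member of each complex, the 6 members with the smallest adjusted p, 6 regulators, and at most 2 called genes per list, which were joined by Cs, Bnip3l, Yy1 and genes singled out after their values were seen. 1 gene this rule takes is not reported here.

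Transcript lengths and gene positions came from GENCODE M21, matched through RefSeq names, and copies from BLAST+ 2.17.0 within its transcripts. Promoters came from RefSeq. No 2 libraries agreed within sampling noise, so each counted once. Intervals cover the fitted variation between libraries.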

Additional observations from a re-analysis of the deposited data

Results flagged for a closer look

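Within each group of 4 libraries, the gap of the farthest library to its neighbour was compared with the group's range for the named members and the complex sums, 58 group tests in all. Chance marks about 1 in 20 such groups, and 3 stood out. In Ndufa4, control replicate 1 (140 CPM) was set apart from the other controls, with a gap of 0.905 of the range. In Cox7b, Ccna2-KO replicate 2 (252 CPM) was set apart from the other libraries of its group by 0.886 of the range. In the summed level of complex V, Ccna2-KO replicate 1 (6440 CPM) was below the rest of its group by 0.880 of the range.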

How the results depend on the processing

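The count of 0 called members in each direction was the same under RLE, upper quartile and total count scaling, no filter, the stricter filter of 1 CPM, limma voom, non-robust estimates and the replicate block. DESeq2 called 1 member higher, and the set term called 9 lower. With single libraries left out, 0 to 10 members were called higher and 0 to 1 lower. The 10 came without control replicate 1, and the 1 lower, Atp5sl (-0.44), without control replicate 3. The members' median log2 fold change ran from -0.12 to 0.11 with single libraries left out. Over all genes, 1924 were called. DESeq2 called 2949, the set term 2892 and the replicate block 987. The range with single libraries left out was 972 to 4627 genes (without Ccna2-KO replicates 1, 2, 3 and 4: 1116, 1031, 972 and 1719, and without control replicates 1, 2, 3 and 4: 4627, 1249, 1221 and 1177). The cause of these shifts was not tested.

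Same-numbered libraries did not deviate together (correlations -0.07, -0.35, -0.26 and 0.15). These correlations gave no sign of a pairing by number, but so few cannot exclude it. With the replicate block 0 members were called. For the 24 named members under 18 alternatives, 422 of 432 values kept their side of the threshold, 10 passed it and 0 called values changed sign, while 33 values not past the threshold changed sign. Adding its copy turned the log2 fold change of Ndufs5 to -0.17. At this depth no difference was detectable in the 6 untested members.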
